A study of Arabidopsis thaliana with 12 samples.

Results

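A set of 3 genes, of the 689 Arabidopsis genes that a single-gene probe of this array could name, was taken from acyl chain synthesis on an acyl carrier protein and from the use of its product. They are LpxA (AT4G29540), an acyltransferase of lipid A type synthesis, AT2G04540, the mitochondrial 3-ketoacyl-acyl carrier protein synthase, and AT1G24360, a plastid ketoacyl reductase. Each was read by 1 probe annotated with that gene alone, and 0 probes with several genes included any of them. The genes were chosen by their measured log2 changes between bromoxynil and water on these same arrays, or with those changes known, so their changes between the groups are given as a description with no test. Gene names come from the platform annotation and were not checked against probe sequences.

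RNA came from wild-type plants of the ecotype Landsberg. One group of 6 arrays held plants given water, and the other 6 held plants given 500 µM bromoxynil, a herbicide of the nitrile class whose target is photosystem II, where it stops electron flow. Every plant had spent 12 h in the dark and was sampled 30 min after the light returned. The labels name neither the organ nor the age, and do not say whether the arrays came from separate plants, so errors and p-values measure the spread between arrays, which may be technical.

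Plants build fatty acids in plastids and, on a smaller scale, in mitochondria. In both compartments a synthase condenses the growing chain with a malonyl unit, a ketoacyl reductase, a dehydratase and an enoyl reductase then process it, and an acyl carrier protein holds it throughout. Plastids supply most membrane lipid, while the mitochondrial pathway is known for octanoyl chains that become lipoate, a cofactor of pyruvate dehydrogenase and of glycine decarboxylase in photorespiration. In bacteria LpxA moves a hydroxyacyl chain from the carrier protein to UDP-N-acetylglucosamine, the first step towards lipid A, and the Arabidopsis protein is a mitochondrial relative of it.

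Intensities were deposited relative to the brightest feature, which was set at 100 on every array. The median of an array ran from 0.443 to 0.491 with water and from 0.624 to 0.654 with bromoxynil, a shift of 0.46 on the log2 scale. Unless stated otherwise, log2 values below were quantile-normalised, which gives all arrays the same distribution. Among 12 green tissue markers, 2 had a single-gene probe and both fell, where 29.9% of all probes were called lower. LHB1B2 (AT2G34420), an antenna protein of photosystem II, had a log2 change of -0.88 and PRK (AT1G32060), the phosphoribulokinase, of -1.62, with limma adjusted p of 8.2e-05 and 2.72e-05. An adjustment for the place of probes in a repeat of probe numbers is described below. After it LHB1B2 did not pass (-0.49 ± 0.19 (SE), limma adjusted p = 0.0507) and its groups overlapped. PRK stayed past the threshold (-1.16, limma adjusted p = 0.000467). Another 2 probes carried a green marker among several genes, of which 1 was called lower and 1 was not called. Of 4 root markers, 0 had such a probe. The part of these shifts in the results below was not tested, and fewer cells of a type cannot be told apart from less RNA per cell.

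LpxA, the acyltransferase, was lower with bromoxynil. Its deposited intensity was 2.19 at the lowest, 2.45 at the median and 3.05 at the highest of the water arrays, against 0.502, 0.684 and 0.993 on the bromoxynil arrays. The brightest bromoxynil array thus stayed below the dimmest water array. Group means were 2.59 ± 0.370 (SD, n = 6) and 0.725 ± 0.193 (SD, n = 6), a ratio of 3.57. After quantile normalisation the log2 change was -2.04 ± 0.18 (SE), a 4.11-fold lower level. The groups still did not overlap, so LpxA had to be lower in 6 of 6 same-number pairs, by log2 -2.40 to -1.63. LpxA had 94.6% to 96.4% of probes at or below it on water arrays and 37.1% to 74.7% on bromoxynil arrays, a ranking that no scale factor can move.

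AT2G04540, which condenses acyl and malonyl units in mitochondria, was also lower. Its intensity was 0.928, 1.14 and 1.25 at the lowest, median and highest water array, against 0.280, 0.466 and 0.573 with bromoxynil. The groups again did not overlap. The water arrays averaged 1.101 ± 0.136 (SD, n = 6) and the bromoxynil arrays 0.451 ± 0.106, a ratio of 2.44. The log2 change was -1.64 ± 0.16 (SE), or 3.12-fold lower. With the groups apart on this scale too, 6 of 6 pairs had to be lower, by log2 -2.39 to -1.33. The share of probes at or below it went from between 79.6% and 88.3% on water arrays to between 18.7% and 45.9% on bromoxynil arrays.

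AT1G24360, the plastid enzyme that reduces the ketoacyl chain to a hydroxyacyl chain, lay the other way. Its intensity was 0.249, 0.257 and 0.308 at the lowest, median and highest water array, and 0.406, 0.467 and 0.519 with bromoxynil. The deposited values of the groups did not overlap, with means of 0.271 ± 0.0283 (SD, n = 6) and 0.463 ± 0.0377 (SD, n = 6), a 1.71-fold higher level with bromoxynil. On the log2 scale this deposited change was 0.78, where the median of all probes on an array shifted by 0.46. After quantile normalisation the log2 change was 0.39 ± 0.09 (SE), or 1.31-fold, and the highest water array then lay just above the lowest bromoxynil array. The pairs were higher in 6 of 6 cases, by log2 0.20 to 0.67. This probe was dim, with a mean brightness at the 27.1 percentile of all probes, just above the dimmest 25%, whereas LpxA stood at the 89.0 percentile and AT2G04540 at the 63.9 percentile.

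**Figure D1:**
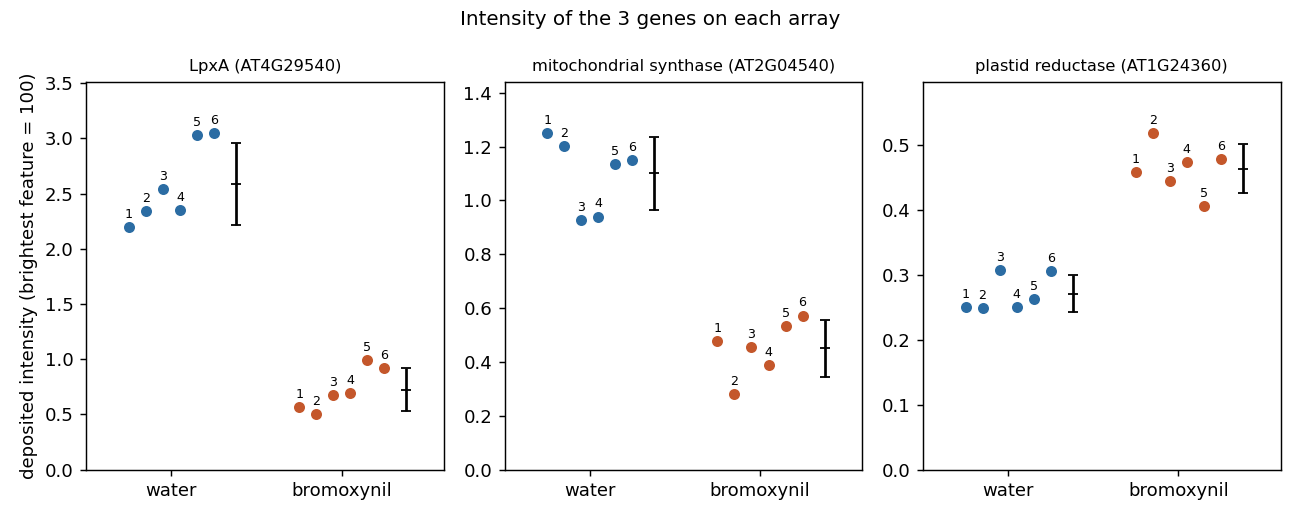
Deposited intensity (linear, brightest feature = 100) of the 3 genes on each of the 6 water and 6 bromoxynil arrays, each point labelled with its array number, and bars showing mean ± SD. LpxA and the mitochondrial synthase lie lower on every bromoxynil array than on any water array (at most 0.993 against at least 2.19 for LpxA), and the plastid reductase lies higher (at least 0.406 against at most 0.308).

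For scale, 1872 of 3439 probes (54.4%) passed limma's test at an adjusted p under 0.05, 24.5% as higher and 29.9% as lower with bromoxynil. The groups did not overlap for 38.5% of probes on deposited values and for 36.5% after quantile normalisation. A difference between the groups was therefore common on this array, and nothing is read from it for the 3 genes. In size, 48 of the 3439 probes had a change as low as that of LpxA or lower, and 106 as low as that of AT2G04540 or lower. The change of AT1G24360 stood at the 68.3 percentile.

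**Figure D2:**
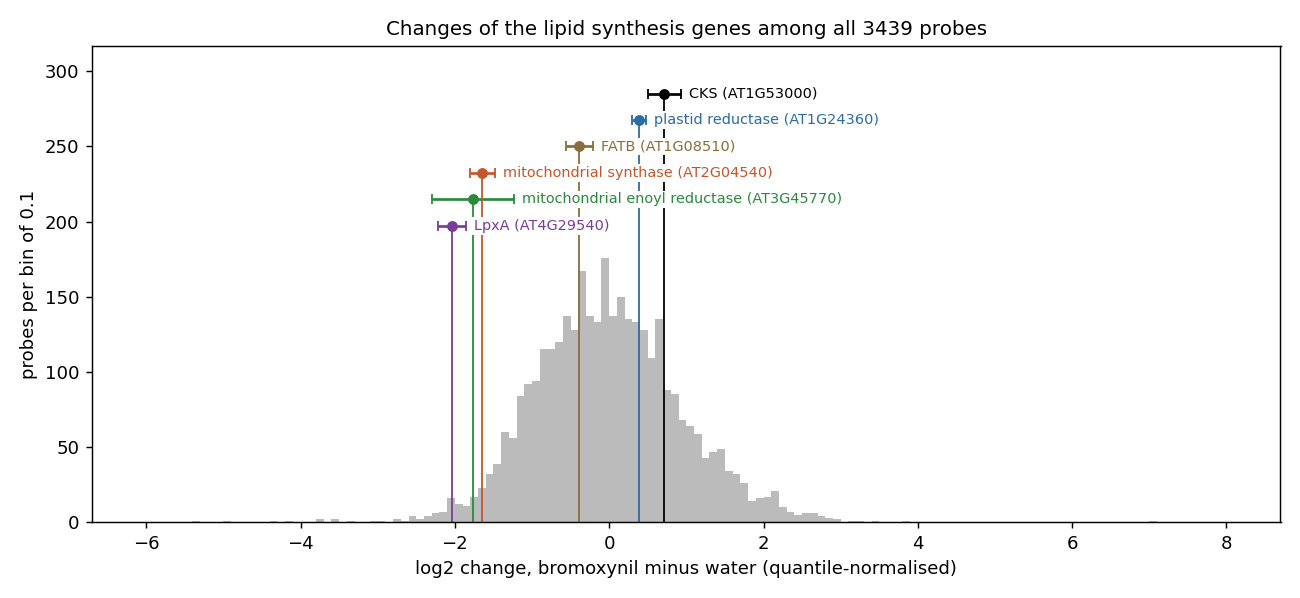
Number of probes (vertical axis, bins of 0.1) by log2 change between bromoxynil and water after quantile normalisation, over all 3439 probes. Markers give the change ± SE of 6 lipid synthesis genes, their height having no meaning: LpxA (-2.04), the mitochondrial enoyl reductase (-1.76) and the mitochondrial synthase (-1.64) lie in the lower tail, and FATB (-0.39), the plastid reductase (0.39) and CKS (0.71) lie within the bulk.

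The mitochondrial and plastid steps were compared as a ratio within each array, which no scale factor per array can change. This ratio sets a synthase against a reductase read by a dimmer probe. A difference between compartments therefore cannot be told apart from one between reaction steps or between probes. Compartments were taken from the gene descriptions, and whether either protein also works in the other compartment was not examined. On deposited values the log2 ratio of AT2G04540 to AT1G24360, set to 0 at the mean of the water arrays, spread from -0.43 to 0.30 with water. With bromoxynil it lay between -2.91 and -1.62, with a mean of -2.09 ± 0.46 (SD, n = 6). The mitochondrial synthase thus stood 4.26-fold lower relative to the plastid reductase. The groups of this ratio could not overlap, because the deposited values of both genes were already apart, in opposite directions. Their separation is therefore no further result. The SE of that difference was 0.22. Bromoxynil array 2 held the lowest ratio, and there the synthase was dimmest and the reductase brightest of their group.

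The ratio of LpxA to the plastid reductase differed more. It ran from -0.20 to 0.28 with water and from -3.30 to -1.96 with bromoxynil, a difference of -2.64 ± 0.20 (SE), or 6.24-fold lower. Here too the lack of overlap follows from that of both genes. The ratio between LpxA and the mitochondrial synthase differed far less. It lay between -0.42 and 0.22 with water and between -0.98 and -0.34 with bromoxynil, so the groups overlapped. Array by array it was nonetheless lower with bromoxynil in 6 of 6 same-number pairs, as it was after quantile normalisation, and in 5 of 6 after the place adjustment. The difference was -0.55 ± 0.15 (SE) on deposited values, -0.40 ± 0.16 (SE) after quantile normalisation and -0.26 ± 0.12 (SE) after the place adjustment.

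**Figure D3:**
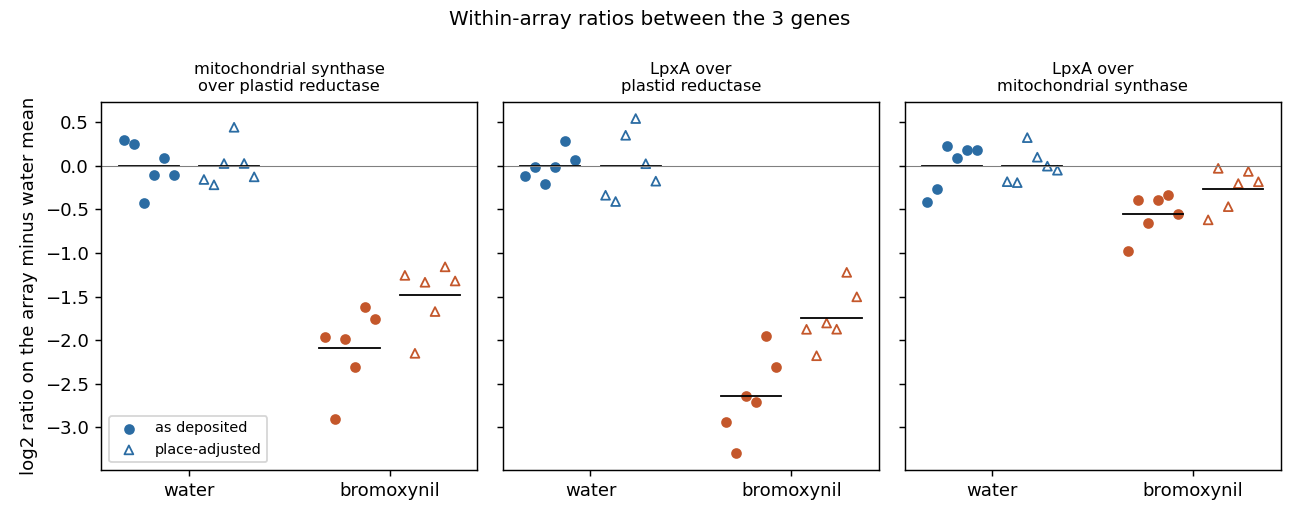
Log2 ratio between 2 of the genes on each array, minus the mean of the 6 water arrays, for values as deposited (filled) and after adjustment for the place of each probe (open), with lines at the group means. Both ratios to the plastid reductase are lower on every bromoxynil array than on any water array (means of -2.09 and -2.64 as deposited, -1.48 and -1.74 adjusted), while the ratio of LpxA to the mitochondrial synthase overlaps between the groups. For deposited values the separation of both ratios follows from that of the single genes.

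Changes also followed the place of a probe in a repeat of 288 probe numbers. This place was inferred from the order of the probe numbers, and no coordinates on the array were used. Over that repeat the running median change of all probes went from -0.78 to 0.73. LpxA lay where 153 nearby probes, within 6 places, had a median log2 change of -0.76, and 60.8% of them were called lower. AT2G04540 lay where the median was -0.33. Measured from their surroundings, the changes of the 2 genes were still -1.28 and -1.32. AT1G24360 lay among probes with a median of 0.23, and exceeded it by 0.15.

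When each array was adjusted for place, the log2 changes were -1.58 ± 0.14 (SE) for LpxA and -1.32 ± 0.14 for AT2G04540, and neither gene's groups overlapped. For AT1G24360 the change was 0.17 ± 0.13 (SE), and the groups overlapped. No share of all probes without overlap is given after this adjustment or for ratios, so nothing is read from a lack of overlap here. The ratio of the mitochondrial synthase to the plastid reductase then differed between bromoxynil and water by log2 -1.48 ± 0.18 (SE), and that of LpxA to the reductase by -1.74 ± 0.21, both still without overlap. The difference for the synthase is its change of -1.32 minus the change of 0.17 of the reductase.

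**Figure D4:**
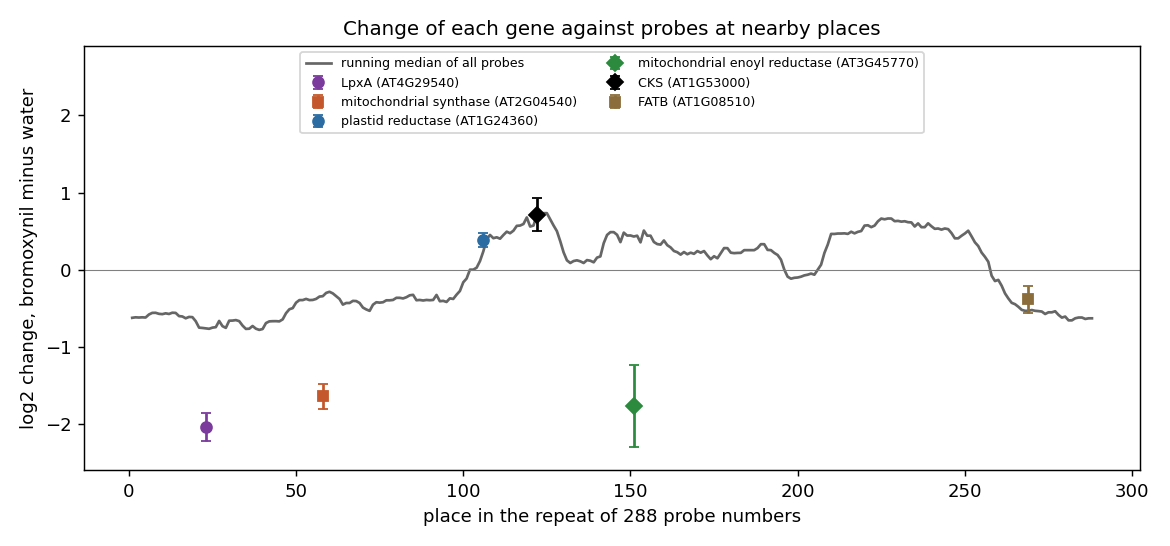
Log2 change (bromoxynil minus water, quantile-normalised) of 6 genes with SE bars, plotted at the place of their probe in the repeat of 288 numbers, over the running median of all probes (line). LpxA, the mitochondrial synthase and the mitochondrial enoyl reductase lie far below the line, the enoyl reductase where the nearby median is 0.44, while the plastid reductase, CKS and FATB lie within 0.16 of their nearby median.

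The 3 genes varied differently among arrays of a group. The pooled SD within groups was 0.33 for LpxA, 0.29 for AT2G04540 and 0.14 for AT1G24360 on the log2 scale, against a median of 0.31 over all probes. The low spread of the plastid probe put it at the 4.25 percentile. LpxA followed the array numbers in both groups. Arrays 1 and 2 lay below the group mean by log2 -0.24 and -0.16 with water and by -0.33 and -0.52 with bromoxynil, and arrays 5 and 6 lay above it by 0.16 each with water and by 0.57 and 0.44 with bromoxynil. For AT2G04540 arrays 5 and 6 were again above the mean in both groups, but array 2 was 0.13 above it with water and -0.61 from it with bromoxynil. AT1G24360 showed no such agreement, as array 4 was farthest below with water (-0.25) and array 5 with bromoxynil (-0.17).

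The rest of the pathway was sparsely covered. Among 87 genes on 6 lists of lipid synthesis and breakdown, 7 had a single-gene probe, the 3 above included. The lists of plastid pyruvate dehydrogenase with lipoate synthesis, of plastid glycerolipids and desaturation, and of fatty acid beta-oxidation had 0 such genes. Of the other 4 genes, AT3G45770 fell, CKS rose and the remaining 2 were not called, so 2 of 4 passed the test against 54.4% of all probes. Their probes all belong to the dimmest 25%.

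AT3G45770, the mitochondrial enoyl reductase that closes each round of chain extension, fell. It is on the mitochondrial list of 12 genes with AT2G04540, and these 2 were the ones measured. Its intensity was 0.180 at the lowest, 0.269 at the median and 0.403 at the highest water array, and 0.00656, 0.140 and 0.155 with bromoxynil. The groups did not overlap. Array 6 with bromoxynil was far below the rest of its group. The log2 change was -1.76 ± 0.53 (SE, n = 6 per group), with an adjusted p of 0.0142 (limma, Benjamini-Hochberg over all probes). All 6 pairs were lower, which groups without overlap require. Without bromoxynil array 6 the change was -1.27 ± 0.29, with a limma adjusted p of 0.00358. Unlike LpxA, this probe lay where nearby probes were higher with bromoxynil (median 0.44), and the place-adjusted change was larger, at -2.25 ± 0.52 with a limma adjusted p of 0.00356. With consecutive array numbers averaged to 3 values per group it did not pass (limma adjusted p = 0.0824).

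The plastid list of 28 genes held 2 further measured genes. FATB (AT1G08510), the thioesterase that releases saturated fatty acids from the carrier protein, did not pass the test. Its intensity was 0.140, 0.216 and 0.262 at the lowest, median and highest water array and 0.163, 0.184 and 0.228 with bromoxynil, so the groups overlapped. The log2 change was -0.39 ± 0.18 (SE), with a limma adjusted p of 0.0902, and 0.10 ± 0.18 after the place adjustment. It passed with medians centred, at -0.61 and a limma adjusted p of 0.00765. It also passed without water array 2 (-0.49, limma adjusted p = 0.0287) and without water array 4 (-0.46, limma adjusted p = 0.0478). AT5G16230, a stearoyl-acyl carrier protein desaturase that sets the first double bond, was listed at 0 on 5 of 6 water arrays and 4 of 6 bromoxynil arrays, and no fold is given.

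For the remaining plastid genes, 7 probes carried several gene names with at least 1 from the list, and none is named here. Of these 7, 1 was higher, 2 were lower and 4 were not called, with a median log2 change of -0.09 and a range from -2.66 to 0.51. Among all 870 probes with several genes, 55.2% were called. The median over all probes was -0.04. After the place adjustment the counts were again 1 higher and 2 lower, against 47.4% of all probes called.

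On the list of 14 lipid A and Kdo genes, LpxA had 1 companion. CKS (AT1G53000) activates the sugar Kdo, which bacteria attach to lipid A and plants build into pectin. Its intensity was 0.111, 0.163 and 0.218 at the lowest, median and highest water array and 0.196, 0.313 and 0.370 with bromoxynil, with overlap between the groups. CKS rose, with a log2 change of 0.71 ± 0.22 (SE) and a limma adjusted p of 0.0146. Nearby probes had a median change of 0.70, almost the same, and after the place adjustment the change was -0.054 ± 0.22 with a limma adjusted p of 0.866. The call was also lost with medians centred (0.48, limma adjusted p = 0.0515) and with consecutive numbers averaged (limma adjusted p = 0.101).

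**Figure D5:**
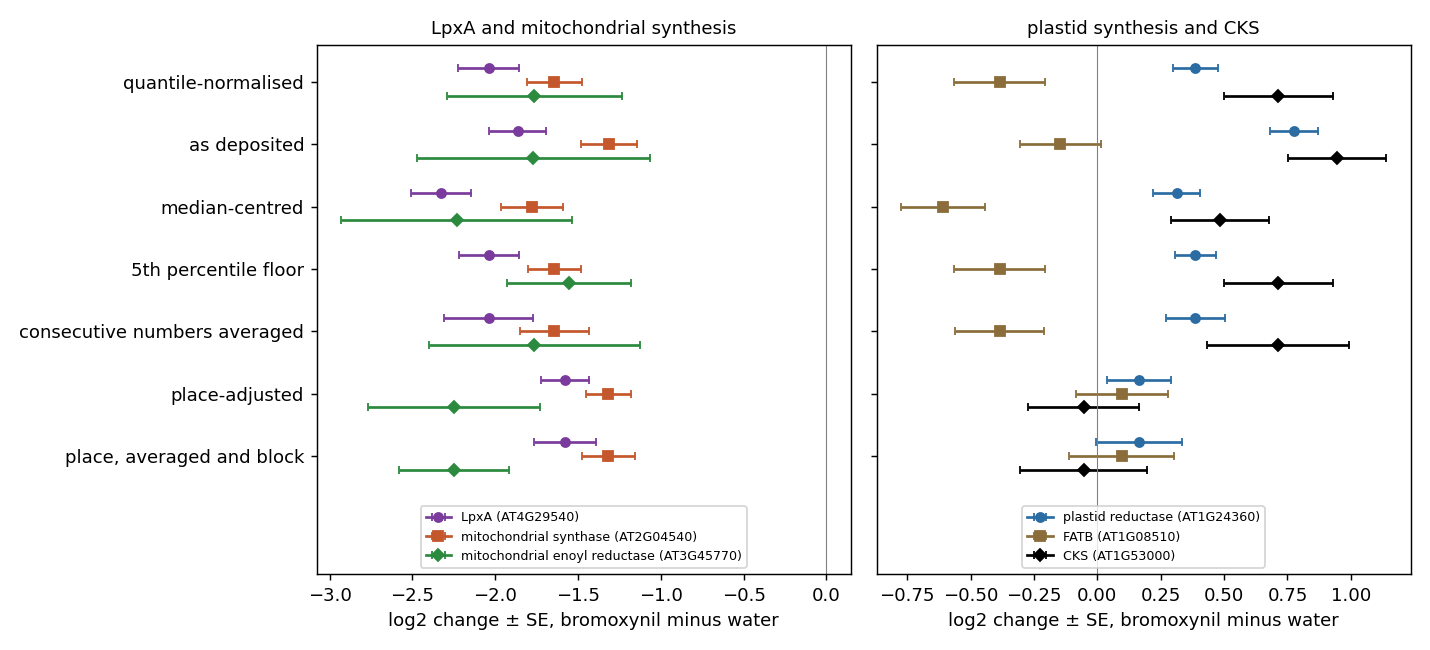
Log2 change ± SE between bromoxynil and water for 6 genes under 7 ways of processing the values (rows). LpxA, the mitochondrial synthase and the mitochondrial enoyl reductase stay below -1.3 in every row, whereas FATB and CKS change sign under the place adjustment and the plastid reductase runs from 0.17 to 0.78. Averaging alone repeats the quantile-normalised changes, and the last row repeats the place-adjusted changes, with other errors.

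Profiles over the 12 arrays were compared among 498 other named genes above the dimmest 25%, by the root mean square difference of log2 values after each gene's own mean was removed. Because the groups differ so much, this measure mostly reflects the change between them. AT4G30740 lay closest to LpxA, at 0.22, followed by AT1G21660 at 0.27 and AT2G04540 itself at 0.32, where the median gene was 1.16 away. AT2G04540 lay closest to AT3G57630 (0.22), AT4G30740 (0.22) and AT4G31470 (0.22), with a median of 0.97. The probes of these neighbours lay between places 17 and 35 of the repeat, near that of LpxA at 23, apart from that of AT2G04540 at 58. AT1G24360 was nearest to FZL (0.18), AT1G55440 (0.18) and AT4G29120 (0.18), with a median of 0.49. Its neighbours had log2 changes of 0.43, 0.67 and 0.24, and after the place adjustment of 0.02, -0.09 and 0.78.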

How the data were processed

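RNA of 12 arrays was measured as intensity on a linear scale, as deposited by the authors, relative to the brightest feature. Scanning, background subtraction and spot averaging are not given in the sources used here, and scanner output was not used. Between 3.14% and 4.57% of the values on an array are 0. The depth cannot be given for arrays, and the number of arrays limits the precision.

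Each 0 was replaced by the smallest positive value on its array, log2 was taken, and arrays were quantile-normalised. All 3439 probes were fitted with limma 3.58.1 (lmFit, eBayes, two-sided) in R 4.3.3, with Benjamini-Hochberg adjustment over all probes and a threshold of 0.05. Procedures were run on simulated data with independent noise on each array and a smooth trend over the repeat found here. Correlation between arrays of the same number was not simulated. Figures used matplotlib 3.10.9. Of 692 single-gene probes, 690 matched a locus of TAIR10.1, used for names only. Genes, lists and alternatives were chosen with earlier results of these data known. Named genes were the 3 genes, all list genes with a single-gene probe, and the 3 nearest profiles of each.

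The place adjustment took from each array a running median over 6 places to either side in the repeat, then the median of each of 12 columns. The repeat of 288 was found between lags of 49 and 1151 by rank autocorrelation of a difference between water arrays. Array numbers come from the titles, and what arrays of 1 number have in common is not stated. Deviations from the group means correlated between same-number arrays in all 6 pairs (r = 0.323 to 0.418 over all probes, above the minimum of 0.1). The numbers were therefore taken as pairs for the pair counts and for the replicate block. The main fit had group only, so its SE and p-values do not use the pairs. Correlation between arrays of different numbers was not computed, so pairs cannot be told apart from runs of consecutive numbers. The alternatives were values as deposited, centred medians, a pseudocount of 0.000346, a floor at the 5th percentile (added after the data were seen), omission of the dimmest 25%, another variance prior, a replicate block, averaged consecutive numbers and each array left out.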

Additional observations from a re-analysis of the deposited data

Results flagged for a closer look

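Distance of a single array from its group was examined for 12 groups, and 2 groups stood out, where about 5% would by chance. AT3G45770, the mitochondrial enoyl reductase, had a log2 intensity of -5.95 on array 6 with bromoxynil, while the 5 other arrays of that group lay between -3.61 and -2.78. CKS (AT1G53000) had one of -2.53 on array 5 with bromoxynil, while the rest lay between -1.93 and -1.65.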

How the results depend on the processing

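The 3 chosen genes kept their sign in all alternatives run, with log2 changes of -2.33 to -1.58 for LpxA, -1.78 to -1.32 for AT2G04540 and 0.17 to 0.78 for AT1G24360. The lowest value of AT1G24360 was small against its error. It was 0.17 ± 0.13 (SE) with the place adjustment and 0.17 ± 0.17 (SE) with averaging and block added. Log2 changes shifted from the main fit by more than the spread between arrays with deposited values (-1.32 for AT2G04540, 0.78 for AT1G24360). The place adjustment, alone or with averaging and a replicate block, also shifted them by more than that (-1.58, -1.32 and 0.17). The differences between steps were then -1.48 for AT2G04540 and -1.74 for LpxA against AT1G24360. With the replicate block alone 2055 probes were called, and it changed no call for AT3G45770, CKS or FATB. Averaging consecutive numbers left 1230 calls, and with place adjustment and block 948. Averaging alone raised the SE from 0.18 to 0.27 for LpxA, 0.16 to 0.21 for AT2G04540 and 0.09 to 0.12 for AT1G24360. For the differences against AT1G24360 the SE went from 0.20 to 0.24 for AT2G04540 and from 0.21 to 0.31 for LpxA. Of the calls, 45.1% were higher, 67.0% on deposited values and 37.7% with medians centred, where the median change of all probes was -0.04, 0.28 and -0.19.

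AT3G45770 lost its call only with averaging alone (-1.76, limma adjusted p = 0.0824). CKS lost it with medians centred (0.48) and with averaging (0.71), and turned to -0.054 with place adjustment. FATB passed with medians centred (-0.61) and turned to 0.10 with place adjustment. The cause was not tested. Omission of the dimmest 25% removed these 3 genes, so it gave no value for them. Leaving out 1 array gave 1754 to 1891 calls, -2.15 to -1.94 for LpxA, -1.72 to -1.52 for AT2G04540, 0.34 to 0.43 for AT1G24360, -2.12 to -1.88 and -2.57 to -2.30 for the step differences, -1.90 to -1.27 for AT3G45770, 0.59 to 0.84 for CKS and -0.49 to -0.30 for FATB. These last 3 probes are among the dimmest 25%, which limits their values.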
